A study of Mus musculus with 16 samples.

Results

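The globin genes are the main output of the late erythroblast, and their counts were followed here from the polychromatic to the orthochromatic stage in mice with and without Ypel4. Members were chosen by gene name: 3 alpha-like genes (Hba-a1, Hba-a2 and Hba-x), 4 beta-like genes (Hbb-bs, Hbb-bt, Hbb-y and Hbb-bh1) and the alpha globin chaperone, 8 names in all. The 7 globin genes were found among the 46078 genes counted in each of 16 libraries, and the chaperone was not analysed here.

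Haemoglobin of adult red cells is a tetramer of alpha and beta chains, each holding a haem group that binds oxygen. The alpha-like and the beta-like genes lie in separate clusters, each ordered with the embryonic gene first and the adult genes after it, and each read under the control of a distant enhancer region. In the mouse embryo Hba-x encodes the zeta chain, Hbb-y the epsilon-y chain and Hbb-bh1 the beta-h1 chain, made mainly by primitive red cells of the yolk sac. From fetal liver onwards Hba-a1 and Hba-a2 encode the alpha chain, and in mice with the single-type beta haplotype Hbb-bs and Hbb-bt encode the beta chain.

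RNA was sequenced from steady-state bone marrow of 4 Ypel4+/+ and 4 Ypel4-/- mice, as counted by the numbers in the sample titles. From each mouse polychromatic erythroblasts (Poly-E) and orthochromatic erythroblasts (Ortho-E) were sorted by Ter119, CD44 and the exclusion of dead cells, which gave 4 libraries in each of 4 groups. The strain label of every sample, wild type included, joins C57BL/6N-A<tm1Brd> with the allele Ypel4<tm1a(EUCOMM)Wtsi>/WtsiIeg, and neither age nor sex is given in the labels. The Ypel4-/- mice are homozygous for a targeted trap allele carried by all cells of the animal. A difference between genotypes in these sorted erythroblasts therefore cannot be assigned to loss of Ypel4 within erythroid cells alone. The libraries held 2670173 to 12451234 counts each (median 4267471). Ypel4 itself served as the check of the genotypes: it was at 490 to 716 CPM in Ypel4+/+ Poly-E against 9.90 to 23.6 CPM in Ypel4-/- Poly-E, and at 4430 to 5441 CPM in Ypel4+/+ Ortho-E against 175 to 224 CPM in Ypel4-/- Ortho-E. CPM are counts per 1000000 counts of the library, with library sizes scaled by TMM, the trimmed mean of M values, a normalisation that assumes most genes to be level between libraries.

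The labelled cell type was checked with markers. All 10 erythroid markers, among them the transferrin receptor and the haem synthesis enzyme Alas2, were counted in every group, and their summed level ran from 29786 to 37706 CPM in Poly-E and from 93778 to 109577 CPM in Ortho-E. Markers of other cells were low. The highest summed level over all libraries was 65.7 CPM for 6 B cell markers, 20.5 CPM for 10 neutrophil and myeloid markers, 11.1 CPM for 6 macrophage markers and 0.761 CPM for 4 T and NK cell markers. The 4 megakaryocyte and platelet markers reached 113 CPM in Ortho-E and 35.6 CPM in Poly-E. In these bulk samples fewer cells of a type and less RNA per cell cannot be told apart.

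The adult genes are near copies of each other, and this set what could be counted. The coding sequences of Hba-a1 and Hba-a2 are both 429 bases long and differ at 1 base, and those of Hbb-bs and Hbb-bt are both 444 bases long and also differ at 1 base. By the default of the counting tool a read with several alignments is not counted, so a single read tells the copies apart only where it holds such a base or lies in an untranslated end that differs. The stretches around both bases are printed because they are the only coding sites at which the copies can be separated. Capitals mark the base that differs, and the sequences are from the GENCODE M21 transcripts on GRCm38, 5′ to 3′ on the coding strand.
Hba-a1: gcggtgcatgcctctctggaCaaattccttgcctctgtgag
Hba-a2: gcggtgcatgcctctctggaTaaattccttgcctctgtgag
Hbb-bs: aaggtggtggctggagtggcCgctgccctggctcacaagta
Hbb-bt: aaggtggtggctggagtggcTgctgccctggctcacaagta

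The alpha difference is C381T, counted from the A of the start codon with the base of Hba-a1 first. It lies in exon 3, at chr11:32284343 in Hba-a1 (stretch chr11:32284323-32284363, + strand) and at chr11:32297160 in Hba-a2 (stretch chr11:32297140-32297180, + strand). The beta difference is C417T, with the base of Hbb-bs first, also in exon 3. It lies at chr7:103826692 in Hbb-bs (stretch chr7:103826672-103826712, − strand) and at chr7:103812683 in Hbb-bt (stretch chr7:103812663-103812703, − strand).

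Every window of 75 bases, taken as 1 read of the 150-cycle kit, was looked up in all transcripts and upstream sequences at hand. Of the windows of the Hba-a1 transcript 12% were found in 1 gene only, and of the Hba-a2 transcript 19.0%. Both share the same 75 windows over base 381, and the surplus of Hba-a2 are windows that run past the shorter annotated end of Hba-a1. No sequence past that end was searched, so a difference there was not shown. Hbb-bs had 35.7% and Hbb-bt 43.4% of windows in 1 gene only, most of them outside the coding sequence, where the share was 7.57% for each. Hba-x, Hbb-y and Hbb-bh1 had 100% of windows to themselves. The counts of the 4 adult genes are thus counts of placeable reads, and they understate each gene by an amount that differs between the alpha and the beta pair. Read pairs, which can be placed by either mate, were not modelled.

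**Figure D1:**
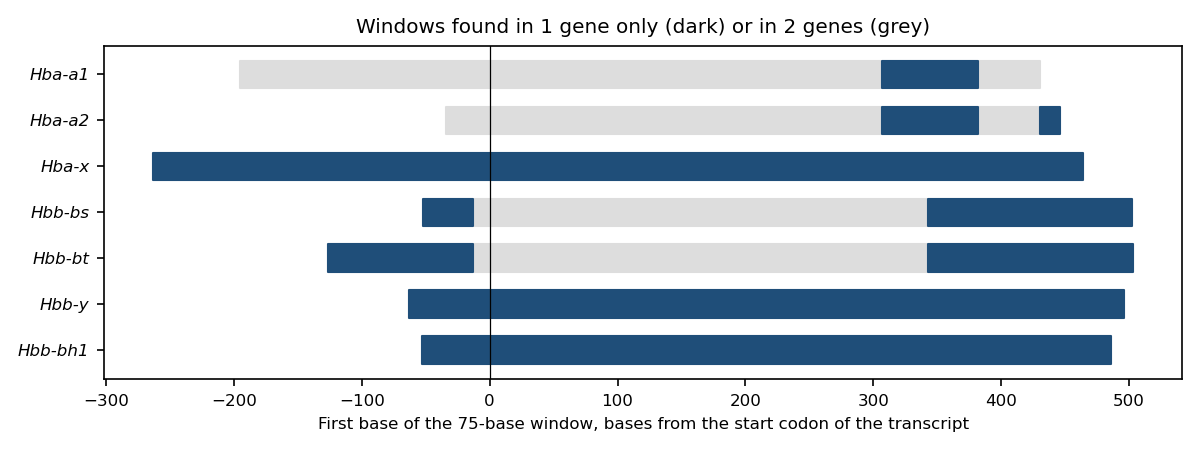
Each bar is a member's transcript, read as 75-base windows placed by the distance of their first base from the start codon (x axis, bases); dark stretches were found in 1 gene only and grey ones in 2. The adult alpha genes can be told apart over 1 internal stretch that covers coding base 381. The dark 3′ end of Hba-a2 runs past the shorter annotated end of Hba-a1, beyond which no sequence was searched. The adult beta genes can be told apart at both ends, and the embryonic genes throughout.

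Upstream of the genes the alpha pair was again alike. The 250 bases before the start of Hba-a1 and Hba-a2 aligned over 247 bases and were identical in all 247, while Hbb-bs and Hbb-bt were identical in 175 of 243 aligned bases, or 72.0%. The 120 bases before the start of Hba-a2 are printed as the promoter that both alpha genes share, from the RefSeq table for GRCm38.p6, chr11:32296372-32296491, + strand, with a CCAAT box and a CCACCC box in capitals.
Hba-a2: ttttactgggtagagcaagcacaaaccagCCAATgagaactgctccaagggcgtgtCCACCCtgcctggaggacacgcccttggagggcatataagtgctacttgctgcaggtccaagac

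Motifs were searched on both strands of these 120 bases as CCACCC (a form of the CACCC box bound by Klf1 and related factors), CCAAT, GATA preceded by A or T and followed by A or G, and TATAAA with T or C as its first letter. All 6 members with an entry in the table except Hba-x held CCAAT, against 21.3% of 32851 promoters. CCACCC stood in Hba-a1, Hba-a2, Hba-x and Hbb-y, against 16.5% of promoters, and a GATA match in Hba-x alone of the 6, against 12.8%. Other CACCC letters were not searched, so CCACACCC in Hbb-bs and CACCC in Hbb-bt were not matched. A TATA match stood in Hba-x, Hbb-bt and Hbb-y, against 10.9%. Other TATA letters were not searched either, so TATAAG in Hba-a1, Hba-a2 and Hbb-bs was not matched. Hbb-bt held CCAAT at 3 places, 2 of them on the opposite strand. These matches are letters in a window and not sites of binding.

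The first comparison was that of the populations within Ypel4+/+ mice, the step from Poly-E to Ortho-E. All 7 globin genes were called higher in Ortho-E by the quasi-likelihood test of edgeR, adjusted by Benjamini-Hochberg over 11747 genes, in a comparison where 26.4% of all genes tested were called higher. The levels of 22.6% of all genes tested were higher in Ortho-E without overlap of the groups. The median log2 fold change of the 7 was 2.22, beside −0.19 for all genes tested.

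Hba-a1 (chr11:32283511-32284465, + strand, ENSMUSG00000069919) is the first of the adult alpha genes. Its level in the Ypel4+/+ Poly-E libraries 1 to 4 was 6305, 5954, 6675 and 5770 CPM, and in the Ortho-E libraries 31186, 26903, 27931 and 26157 CPM. The groups did not overlap, and the difference was 2.22 on the log2 scale (SE 0.12, adjusted p = 1.73e-14, edgeR).

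Hba-a2 (chr11:32296489-32297298, + strand, ENSMUSG00000069917) encodes the same chain from the second copy. Its Ypel4+/+ Poly-E libraries read 3171, 3101, 3465 and 2876 CPM, the Ortho-E libraries 20389, 18018, 19416 and 19153 CPM. Its difference, 2.64 (SE 0.12, adjusted p = 1.20e-15, edgeR), was the second largest of the 7 after that of Hba-x.

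Hbb-bs (chr7:103826534-103828096, − strand, ENSMUSG00000052305) was the most counted member in every library. In Ypel4+/+ Poly-E its level was 22951, 24187, 22747 and 19442 CPM, and in Ypel4+/+ Ortho-E 141438, 124250, 105906 and 106573 CPM. Libraries 1 and 2 of the Ortho-E group stood above libraries 3 and 4, and all 4 stood above every Poly-E library. The difference was 2.45 (SE 0.13, adjusted p = 1.41e-14, edgeR).

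Hbb-bt (chr7:103812524-103813996, − strand, ENSMUSG00000073940), the second adult beta gene, varied most among the adult genes. Its Ypel4+/+ Poly-E libraries had 5590, 8107, 7240 and 6359 CPM, while Ortho-E libraries had 36841, 32437, 19397 and 30013 CPM. Ortho-E library 3 was the low one. The groups remained apart, with a difference of 2.15 (SE 0.17, adjusted p = 8.48e-10, edgeR).

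The embryonic genes were at the bottom of the range, with 0 to 12 counts per Ypel4+/+ library. Hba-x (chr11:32276400-32278116, + strand, ENSMUSG00000055609) had 3, 0, 4 and 4 counts in Ypel4+/+ Poly-E and 9, 10, 6 and 12 counts in Ypel4+/+ Ortho-E. The 0 counts of Poly-E library 2, with a total of 3348608 counts, allow a level of up to 0.896 CPM by library total, taken from 3 counts. Its fitted difference of 3.46 (SE 0.55, adjusted p = 4.58e-06, edgeR) rests on 11 counts against 37.

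Hbb-y (chr7:103851745-103853240, − strand, ENSMUSG00000052187) had 7, 6, 6 and 6 counts in Ypel4+/+ Poly-E and 12, 5, 8 and 6 counts in Ortho-E. Hbb-bh1 (chr7:103841636-103843164, − strand, ENSMUSG00000052217) had 1, 4, 8 and 4 counts in Poly-E and 0, 6, 11 and 7 counts in Ortho-E, where the 0 in library 1, with a total of 3904105 counts, allows up to 0.768 CPM by library total. Hbb-y differed by 1.99 (SE 0.52, adjusted p = 0.00169, edgeR) and Hbb-bh1 by 2.22 (SE 0.63, adjusted p = 0.00396, edgeR), and Hbb-bh1 was the member whose groups overlapped. Intervals and limits of this kind cover counting error only.

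**Figure D2:**
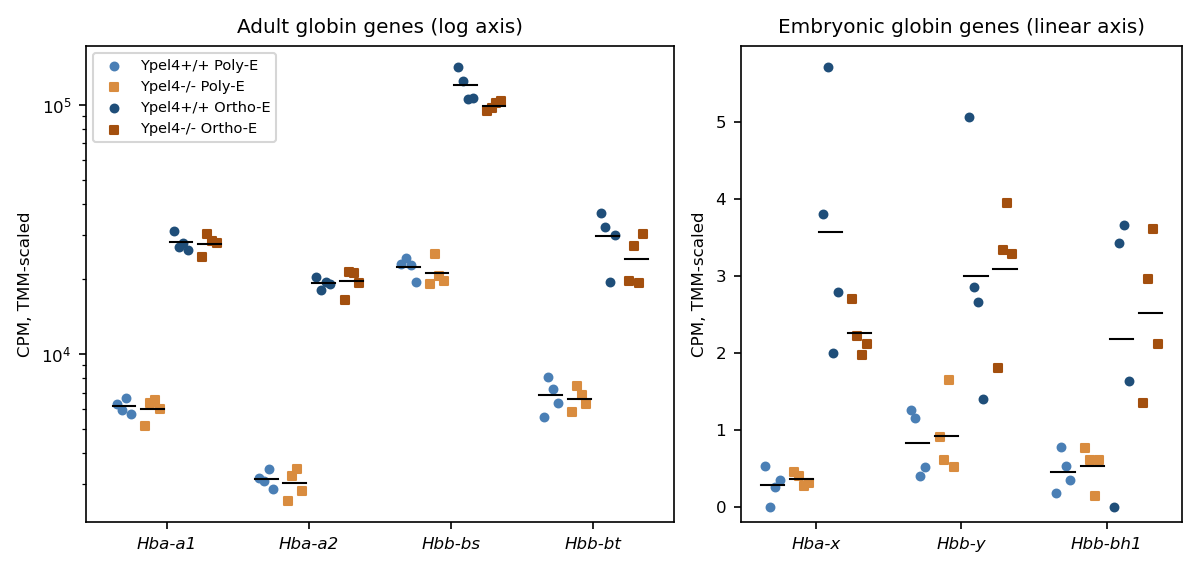
TMM-scaled CPM (y axes, log on the left and linear on the right) of the 4 adult and 3 embryonic globin genes, 1 point per library and a bar at the mean of 4, for the 4 groups of genotype and population. All adult genes stand higher in Ortho-E than in Poly-E without overlap, Hbb-bs is highest, and the embryonic genes do not exceed 5.71 CPM.

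The size of these differences depends on the scaling. TMM factors were 1.45 to 1.64 in Poly-E and 0.606 to 0.726 in Ortho-E, and scaling by library totals in place of TMM lowered the median of all genes, in Ypel4+/+ from −0.19 to −1.45 and in Ypel4-/- from −0.09 to −1.47. By library totals, 1217 genes were called higher and 7087 lower in Ypel4+/+, where TMM gave 3101 higher and 3773 lower. In Ypel4-/- the split was 1337 to 7289 by totals and 3538 to 3767 by TMM. On the scale of library totals Hba-a1 was higher by 0.93 (SE 0.10), Hba-a2 by 1.36 (SE 0.10), Hba-x by 2.20 (SE 0.56), Hbb-bs by 1.17 (SE 0.10) and Hbb-bt by 0.86 (SE 0.17) in Ypel4+/+, all called, against 10.4% of genes called higher. Hbb-y at 0.71 (SE 0.51, adjusted p = 0.218, edgeR) and Hbb-bh1 at 0.96 (SE 0.65, adjusted p = 0.187, edgeR) no longer passed. Under both scalings the members lay above the median of all genes by about the same distance, and no member changed direction.

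In Ypel4-/- mice the same step gave the same 7 calls, against 29.5% of 11973 genes called higher, and the groups of all 7 stood apart, as did those of 23.1% of genes in that direction. Hba-a1 went from 5164, 6354, 6533 and 5991 CPM in Poly-E to 24467, 30315, 28281 and 27813 CPM in Ortho-E. Its difference was 2.38 (SE 0.11, adjusted p = 1.68e-18, edgeR). Hba-a2 went from 2579, 3236, 3471 and 2824 CPM to 16473, 21402, 21071 and 19331 CPM, a difference of 2.87 (SE 0.12, adjusted p = 7.84e-20, edgeR). In both alpha genes Ypel4-/- library 1 was the lowest of its group in each population on this scale. By library totals Hba-a1 in Ortho-E was lowest in library 4, at 17390 against 17751 CPM in library 1.

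Hbb-bs went from 19104, 25106, 20554 and 19607 CPM in Ypel4-/- Poly-E to 94563, 96982, 101270 and 103763 CPM in Ypel4-/- Ortho-E, a difference of 2.41 (SE 0.11, adjusted p = 1.91e-19, edgeR). Hbb-bt went from 5839, 7429, 6830 and 6300 CPM to 19617, 27142, 19352 and 30241 CPM, a difference of 2.04 (SE 0.13, adjusted p = 3.10e-15, edgeR). The Ortho-E values of Hbb-bt fell into a low pair, libraries 1 and 3, and a high pair, libraries 2 and 4.

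The embryonic genes had 1 to 17 counts per Ypel4-/- library. Hba-x summed to 13 counts over the Poly-E libraries and 29 over the Ortho-E libraries, Hbb-y to 31 and 42, and Hbb-bh1 to 21 and 33. Their differences were 2.75 (SE 0.52) for Hba-x, 1.99 (SE 0.43) for Hbb-y and 2.32 (SE 0.49) for Hbb-bh1. By library totals, where 11.2% of genes were called higher, the 4 adult genes and Hba-x were again called and Hbb-y (adjusted p = 0.219, edgeR) and Hbb-bh1 (adjusted p = 0.0886, edgeR) were not.

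**Figure D3:**
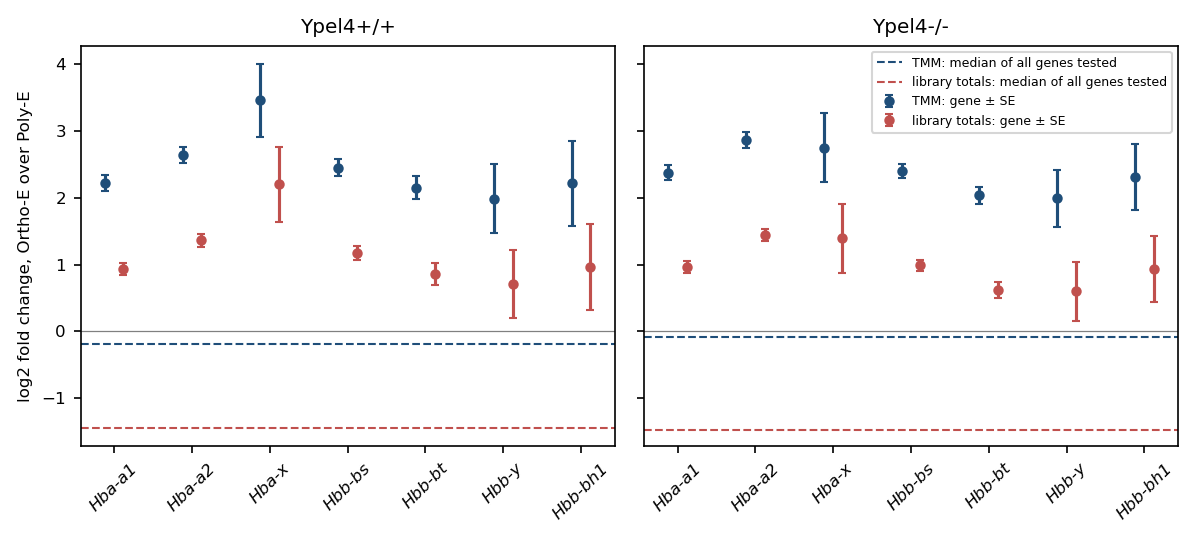
Log2 fold change of Ortho-E over Poly-E with its SE (y axis) for the 7 globin genes in Ypel4+/+ (left) and Ypel4-/- mice (right), by TMM and by library totals; dashed lines mark the median of all genes tested under each scaling. Every member lies above its dashed line, and library totals place the adult genes between 0.62 and 1.44.

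Per kilobase of exon the order of the members in Ypel4+/+ Ortho-E was Hbb-bs at 138519 ± 19570 CPM per kb (SD, n = 4), Hbb-bt at 42208 ± 10541, Hba-a1 at 34537 ± 2730 and Hba-a2 at 28852 ± 1461. Hbb-y at 4.53 ± 2.31, Hba-x at 3.81 ± 1.71 and Hbb-bh1 at 3.55 ± 2.79 CPM per kb followed. Hbb-bt and Hba-a1 did not differ beyond their spread, and neither did the 3 embryonic genes. In Ypel4+/+ Poly-E the order of the adult genes was the same, from 25877 ± 2351 CPM per kb for Hbb-bs over 9707 ± 1550 for Hbb-bt and 7606 ± 492 for Hba-a1 to 4727 ± 364 for Hba-a2. Hba-x was the lowest there, at 0.307 ± 0.238 CPM per kb. The order of adult genes is one of placeable reads, given the shared sequence above.

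Shares within a library do not depend on the scaling. The 7 members took 5.36% to 6.38% of all counts in Ypel4+/+ Poly-E and 11.3% to 13.9% in Ypel4+/+ Ortho-E. In Ypel4-/- they took 5.37% to 6.43% in Poly-E and 10.7% to 11.8% in Ortho-E. The mean share was 5.82% ± 0.468 (SD, n = 4) and 12.5% ± 1.31 in Ypel4+/+, and 5.76% ± 0.489 and 11.3% ± 0.427 in Ypel4-/-.

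The balance of the alpha copies shifted with the population. Hba-a2 made up 33.5%, 34.2%, 34.2% and 33.3% of the counts of both alpha genes in Ypel4+/+ Poly-E and 39.5%, 40.1%, 41.0% and 42.3% in Ypel4+/+ Ortho-E. In Ypel4-/- it was 33.3%, 33.7%, 34.7% and 32.0% in Poly-E, while Ortho-E libraries gave 40.2%, 41.4%, 42.7% and 41.0%. The share was higher in Ortho-E in 4 of 4 mice of each genotype, by 5.87 to 9.01 percentage points in Ypel4+/+ and by 6.93 to 8.97 in Ypel4-/-. All 8 Ortho-E libraries stood above all 8 Poly-E libraries. By the annotation, the reads that separate the copies lie over base 381 or, for Hba-a2, past the annotated end of Hba-a1. Whether coverage along the transcripts moved with the population was not tested.

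The balance of the beta copies shifted less regularly. Hbb-bt made up 19.6%, 25.1%, 24.1% and 24.6% of the counts of both adult beta genes in Ypel4+/+ Poly-E, and 20.7%, 20.7%, 15.5% and 22.0% in Ypel4+/+ Ortho-E. In Ypel4-/- it was 23.4%, 22.8%, 24.9% and 24.3% in Poly-E, while Ortho-E libraries gave 17.2%, 21.9%, 16% and 22.6%. The share was lower in Ortho-E in all mice but Ypel4+/+ mouse 1. Mouse 3 of both genotypes had the lowest Ortho-E share of its group.

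Alpha to beta counts gave a ratio of 0.332, 0.280, 0.338 and 0.335 in Ypel4+/+ Poly-E and of 0.289, 0.287, 0.378 and 0.332 in Ypel4+/+ Ortho-E. In Ypel4-/- the ratio was 0.310, 0.295, 0.365 and 0.340 in Poly-E, while Ortho-E libraries gave 0.359, 0.417, 0.409 and 0.352. It was higher in Ortho-E in 4 of 4 Ypel4-/- mice and in 2 of 4 Ypel4+/+ mice, and the 2 Ortho-E groups overlapped (0.321 ± 0.0429 in Ypel4+/+ and 0.384 ± 0.0336 in Ypel4-/-, SD, n = 4). The ratio is not one of transcripts, since placeable shares differ between the pairs.

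**Figure D4:**
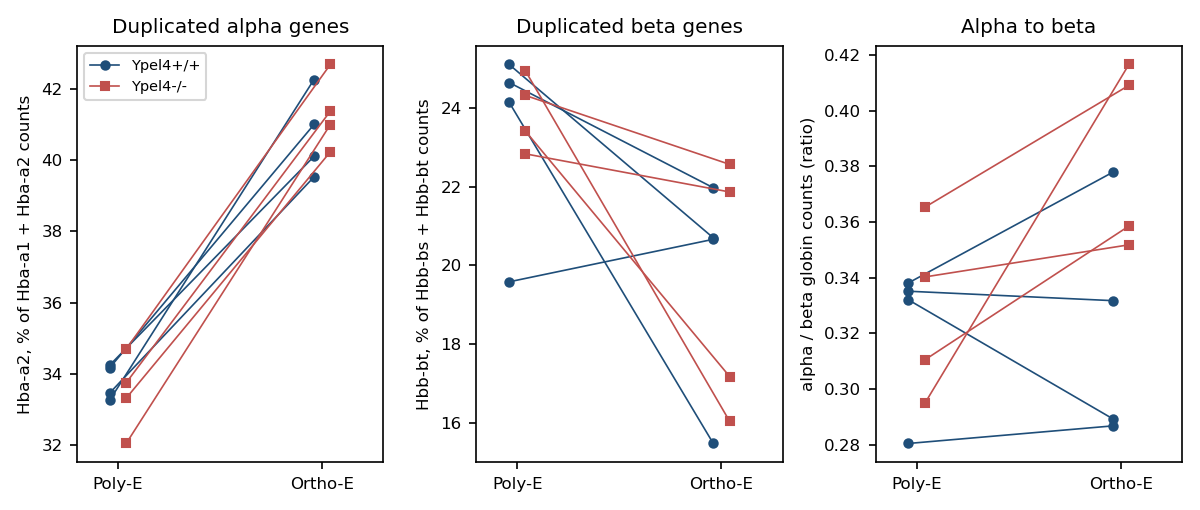
Share of Hba-a2 in the alpha counts (left, percent), share of Hbb-bt in the adult beta counts (middle, percent) and ratio of alpha to beta counts (right), with a line for each of 8 mice from Poly-E to Ortho-E; the y axes do not start at 0. The Hba-a2 share rises along all 8 lines, from 32.0% to 34.7% up to 39.5% to 42.7%, the Hbb-bt share falls along 7 of 8, and the ratio has no common direction in Ypel4+/+.

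The embryonic genes together were 53 of 1427743 globin counts in Ypel4+/+ Poly-E, a share of 0.00371% (95% exact Clopper-Pearson interval 0.00278% to 0.00486%), and 92 of 2195134 in Ypel4+/+ Ortho-E, 0.00419% (0.00338% to 0.00514%). In Ypel4-/- they were 65 of 1368717 in Poly-E, 0.00475% (0.00367% to 0.00605%), and 104 of 2274471 in Ortho-E, 0.00457% (0.00374% to 0.00554%). Each interval covers counts summed over 4 mice and not the spread between them, all 4 overlap, and the difference between shares was not tested.

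The comparison of genotypes asked whether the loss of Ypel4 changes the globin genes. In Poly-E 0 of the 7 members were called, beside 1 of 12395 genes tested, or 0.00807% (edgeR). None of the 7 had an unadjusted p under 0.05 in edgeR or in DESeq2, where 2.19% and 1.4% of all genes did. Mean Hba-a1 was 6176 ± 400 CPM in Ypel4+/+ against 6010 ± 608 in Ypel4-/- (SD, n = 4), a log2 difference of −0.04 (SE 0.10). Hba-a2 differed by −0.06 (SE 0.11), Hbb-bs by −0.08 (SE 0.11) and Hbb-bt by −0.05 (SE 0.12). The embryonic genes differed by 0.24 (SE 0.68) for Hba-x, 0.27 (SE 0.53) for Hbb-y and 0.25 (SE 0.58) for Hbb-bh1, and the groups of each of the 7 overlapped, while those of 2.09% of all genes stood apart.

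In Ortho-E again 0 of 7 members were called, beside 3 of 10521 genes, or 0.0285% (edgeR). Hba-a1 differed by 0.00 (SE 0.09) and Hba-a2 by 0.04 (SE 0.09) on the log2 scale, from means of 28044 ± 2217 and 19244 ± 975 CPM (SD, n = 4) in Ypel4+/+. Hbb-bs was the 1 member with an unadjusted p under 0.05, both in edgeR, where 3.68% of all genes tested had one, and in DESeq2, where 2.08% did. Its level, printed above, was 105906 CPM or more in Ypel4+/+ and 103763 CPM or less in Ypel4-/-, so that the groups stood apart without overlap, as did those of 2.35% of all genes tested. The difference was −0.26 (SE 0.09, adjusted p = 0.995, edgeR) and did not pass the adjustment, and adjusted p ran from 0.353 to 1.0 over the alternatives.

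Library 1 carried a good part of that difference. Without Ypel4+/+ Ortho-E replicate 1 it was −0.15, and leaving out 1 library at a time moved it between −0.34 and −0.15. By library totals the Hbb-bs groups overlapped, with a difference of −0.21 (SE 0.065, unadjusted p = 0.0041, edgeR) that did not pass the adjustment either. Ypel4+/+ Ortho-E libraries 1 and 2 stood far above every Ypel4-/- Ortho-E library, while libraries 3 and 4 were close to the highest Ypel4-/- values. Over the better counted genes libraries 1 and 2 of that Ypel4+/+ group were also alike, as were libraries 3 and 4. Chi-square per degree of freedom was 3.87 and 3.95 within these pairs and 13.8 to 22.3 across them. The part of this grouping in the Hbb-bs difference was not tested. Summed B cell markers were at 28.9 to 42.3 CPM in Ypel4+/+ Ortho-E and at 44.1 to 65.7 CPM in Ypel4-/- Ortho-E, also without overlap, with 1 of the 6 markers at 0 throughout the Ypel4+/+ group, and their part in the result was not tested.

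Hbb-bt differed by −0.29 (SE 0.23) in Ortho-E with overlapping groups, by −0.15 without Ypel4+/+ Ortho-E replicate 1 and by −0.43 without replicate 3. Hba-x differed by −0.57 (SE 0.42), Hbb-y by 0.17 (SE 0.42) and Hbb-bh1 by 0.26 (SE 0.54). With SEs of about this size a moderate change of an embryonic gene could not have been detected. The interaction of genotype and population, fitted on all 16 libraries and 13318 genes, called 0 members and 0 genes, or 0%, with 363 genes (2.73%) at an unadjusted p under 0.05, and DESeq2 called 1 gene that was no member. The interaction was −0.19 (SE 0.16) for Hbb-bs, −0.25 (SE 0.25) for Hbb-bt, 0.02 (SE 0.15) for Hba-a1 and 0.08 (SE 0.16) for Hba-a2. Leaving out 1 library at a time moved it between −0.24 and −0.075 for Hbb-bs, nearest to 0 without Ypel4+/+ Poly-E replicate 4, and between −0.41 and −0.093 for Hbb-bt, nearest to 0 without Ypel4+/+ Poly-E replicate 1.

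**Figure D5:**
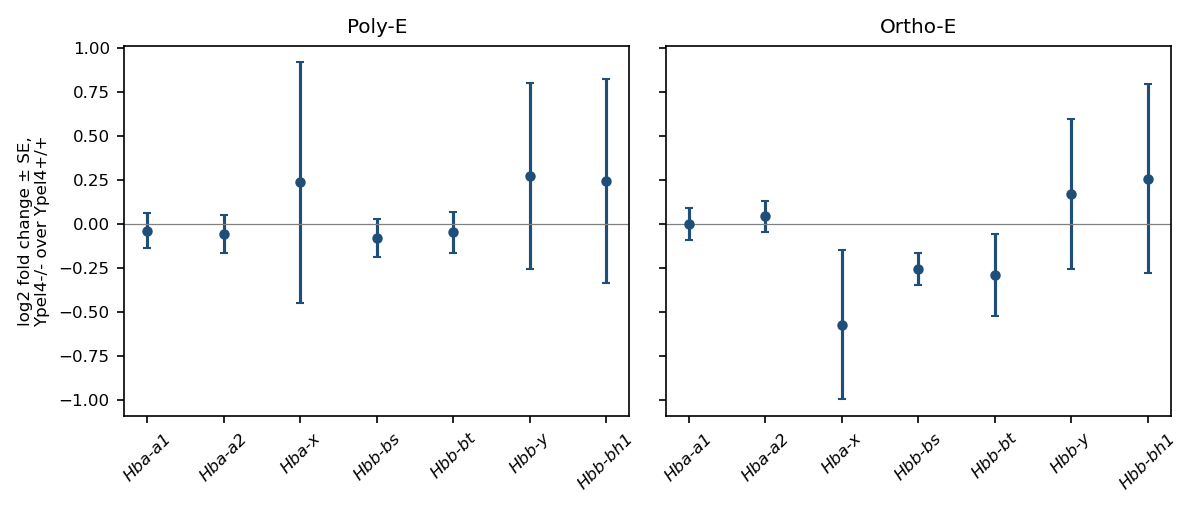
Log2 fold change of Ypel4-/- over Ypel4+/+ with its SE (y axis, TMM) for the 7 globin genes in Poly-E (left) and Ortho-E (right). No gene passed the adjusted threshold; the 4 adult genes lie between −0.08 and −0.04 in Poly-E and between −0.29 and 0.04 in Ortho-E, and the embryonic genes have the widest SEs.

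The regulators of the globin clusters did not move as one. Of 16 genes, all tested, 6 were called higher and 8 lower in Ortho-E of Ypel4+/+ mice, and 6 higher and 4 lower in Ypel4-/- mice. Of all genes tested 26.4% were called higher and 32.1% lower in Ypel4+/+, and 29.5% and 31.5% in Ypel4-/-. The median log2 fold change was −0.12 in Ypel4+/+ and 0.00 in Ypel4-/-, beside −0.19 and −0.09 for all genes. Mafk, a small Maf protein that pairs with Nfe2 at globin enhancers, had the highest value in both, 2.69 (SE 0.14) from 174 to 1092 CPM in Ypel4+/+ and 3.07 (SE 0.18) in Ypel4-/-. The lowest value in Ypel4+/+ was that of Bcl11a, a repressor of embryonic and fetal globin genes, at −1.77 (SE 0.61, adjusted p = 0.0153, edgeR), from 1.90 to 0.641 CPM. Without Ypel4+/+ Poly-E replicate 3 or Ortho-E replicate 4 it did not pass (adjusted p = 0.0624 and 0.107, edgeR). In Ypel4-/- the lowest was Ldb1, a bridge between enhancer and promoter, at −1.38 (SE 0.15). By library totals 5 were called higher and 10 lower in each genotype, Mafk still higher by 1.41 and 1.65. On that scale 10.4% of all genes were called higher and 60.3% lower in Ypel4+/+, and 11.2% and 60.9% in Ypel4-/-.

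The 8 genes of globin translation and quality control included 5 called higher and 2 called lower in each genotype, with medians of 1.29 and 1.41, where 26.4% and 29.5% of all genes were called higher and 32.1% and 31.5% lower. Ube2o, a ubiquitin ligase that clears unpaired alpha globin and ribosomes from late red cells, was highest, going from 630 ± 120 to 6242 ± 1158 CPM (SD, n = 4) in Ypel4+/+, a difference of 3.34 (SE 0.16), and by 3.74 (SE 0.22) in Ypel4-/-. Hspa8, a cytosolic heat shock protein of the Hsp70 family, was lowest, at −1.10 (SE 0.29, adjusted p = 0.0103, edgeR) in Ypel4+/+ and −1.30 (SE 0.14) in Ypel4-/-. Without Ypel4+/+ Poly-E replicate 1 or replicate 2 the former did not pass (adjusted p = 0.0794 and 0.0608, edgeR). By library totals 4 were called higher and 4 lower in each genotype, where 10.4% and 11.2% of all genes were called higher and 60.3% and 60.9% lower.

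Of 9 other globin family names, 7 had counts to look up and 3 passed the filter of 10 counts. Hbq1a and Hbq1b, a pair of theta genes of the alpha cluster, went from 6.24 to 65.1 CPM and from 164 to 461 CPM in Ypel4+/+. The differences were 3.43 (SE 0.16) for Hbq1a and 1.52 (SE 0.17) for Hbq1b, and 3.47 (SE 0.18) and 2.48 (SE 0.40) in Ypel4-/-. By library totals Hbq1b did not pass in Ypel4+/+ (0.25, adjusted p = 0.232, edgeR). Hbb-bh2, a silent beta-like gene, had 32 counts over 16 libraries. The genes of myoglobin and cytoglobin were at 0 counts in all libraries.

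Within 100 kb of a member lay 27 further genes, theta genes included. Of 13 tested in Ypel4+/+, 10 were called higher and 0 lower, with a median of 1.82, and of 14 tested in Ypel4-/-, 11 higher and 0 lower, with a median of 2.13, beside 26.4% and 29.5% of all genes called higher. By library totals 5 were called higher and 1 lower in Ypel4+/+ and 4 higher and 1 lower in Ypel4-/-, beside 10.4% and 11.2% of all genes called higher and 60.3% and 60.9% lower. Genes that pass the filter through the group where they are high must differ, which touches the olfactory receptor genes around the beta cluster, such as Olfr630, highest at 4.14 (SE 1.05) in Ypel4+/+ on 20 counts over 16 libraries. The lowest was the pseudogene Dnajc19-ps at −1.66 (SE 0.80, adjusted p = 0.0799, edgeR). Nprl3, whose introns hold the alpha globin enhancers and which was chosen after its values were seen, went from 95.7 to 290 CPM in Ypel4+/+, a difference of 1.63 (SE 0.13), and of 0.35 by library totals.

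Between genotypes none of the 4 lists had a gene called in Poly-E, in Ortho-E or for the interaction, and of the 16 regulators 0 had an unadjusted p under 0.05 in Poly-E, where 2.19% of all genes did, and 2 in Ortho-E, where 3.68% did. Klf1, the factor that binds the CACCC box of adult beta globin genes, was the lowest regulator in Ortho-E, at 384 ± 45.6 CPM in Ypel4+/+ and 324 ± 36.9 CPM in Ypel4-/- (SD, n = 4), a difference of −0.23 (SE 0.10, adjusted p = 0.995, edgeR). The highest was Bcl11a at 1.29 (SE 0.80) from 0.641 CPM. In Poly-E, among the same genes, values ran from −0.20 (SE 0.14) for Mafk to 1.28 (SE 0.70) for Cited2, which had 45 counts over all libraries. The translation and quality control genes lay between −0.21 (SE 0.12) for Ppp1r15a, a subunit that directs dephosphorylation of eIF2 alpha, and 0.05 (SE 0.14) for Eif2s1, which encodes eIF2 alpha, in Poly-E, and between −0.44 (SE 0.26) for Hspa8 and 0.12 (SE 0.15) for Ube2o in Ortho-E. Hbq1a was the highest of the other globin genes in Poly-E, at 0.23 (SE 0.23), and Hbb-bh2 the lowest, at −0.71 (SE 1.07), and in Ortho-E they stood at 0.15 (SE 0.13) and 0.46 (SE 0.69). Neighbouring genes ran from −1.23 (SE 0.48, adjusted p = 1.0, edgeR) for Dnajc19-ps to 1.37 (SE 1.05) for Olfr631 in Poly-E, and from −1.74 (SE 0.81) for Olfr68 to 1.37 (SE 1.05) for Olfr66 in Ortho-E, all on 53 counts or fewer over 16 libraries.

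Variation among mice was compared as the deviation of log2 CPM from the mean of each group, over 16 libraries and 4835 genes with a mean of at least 10 CPM. Hba-a1 and Hba-a2 deviated together (Pearson r = 0.91), more than Hbb-bs and Hbb-bt (0.60), and the pairs of an alpha with a beta gene gave 0.30 to 0.56. Among the non-member genes most like Hba-a1 were Slc48a1 (0.84), a haem transporter, and Nfe2 (0.84), the erythroid factor that pairs with small Maf proteins. For Hba-a2 they were Snx15 (0.88), Fbxo9 (0.85) and Ppp2r4 (0.85). Those most like Hbb-bs were Abhd5 (0.91), Tnfrsf14 (0.90) and Slc7a6os (0.89), and those most like Hbb-bt were Tmx2 (0.87), Nae1 (0.86) and Ube2s (0.83), a ubiquitin-conjugating enzyme. No gene was named for more than 1 member. These correlations are a description, chosen as the highest of 4835, between genes that share libraries, depth and scaling factors.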

How the data were processed

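The authors sequenced poly-A RNA libraries (TruSeq RNA v2, not strand-specific) of sorted cells, aligned the reads to GRCm38 and deposited gene counts made with featureCounts 1.6.4. Per the file headers the counts tally read pairs on exons on either strand, with no scaling, and by that tool's default a read with several alignments, or one on exons of more than 1 gene, adds nothing. The titles gave the group and the number of every sample. The members and gene lists were chosen with earlier results of these data known.

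Tests used edgeR 4.0.16 in R 4.3.3, by robust quasi-likelihood with TMM scaling. A gene entered a fit when its libraries summed to 10 counts or more, and p was adjusted over all such genes by Benjamini-Hochberg, with a threshold of 0.05. Comparisons were Ortho-E against Poly-E in each genotype and Ypel4-/- against Ypel4+/+ in each population, with 8 libraries each, and their interaction over 16 libraries. Shares and ratios were given per library with no test. The tests were tried on simulated data. Alternatives were DESeq2 1.42.0 on the same and on all 16 libraries, edgeR on all 16 libraries, other size factors, library totals, members left out of the scaling, filterByExpr, no filter, the replicate number as a block, and each library left out. No library was a copy of another.

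Named genes were all members, the called or else the lowest and highest genes of 4 lists, and the 3 genes most like each member of at least 100 CPM, of which 1 is not reported here. Sequences came from GENCODE M21 transcripts and the RefSeq promoter table; no genome was used, and Hbb-bh1 had no promoter entry. Windows across the start of a member were searched in its upstream bases joined to its transcript.

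Whether replicate numbers pair libraries was checked from the correlation of their deviations from the group means over 4835 genes. Both populations of a number share a further number in the deposited names, read here as the mouse, and correlated at 0.49 to 0.65 in Ypel4+/+ and 0.086 to 0.56 in Ypel4-/-. Differently numbered libraries of both populations correlated at −0.50 to 0.43 in Ypel4+/+ and −0.47 to 0.29 in Ypel4-/-. Same-numbered Ypel4+/+ and Ypel4-/- libraries correlated at 0.23 to 0.64 in Poly-E, each above 0.1 and taken as paired, and at −0.13 to 0.34 in Ortho-E, not taken as paired. That rule does not establish pairs in Poly-E, where different numbers gave −0.58 to 0.60. The same number was the best match there for 1 of 4 Ypel4+/+ and 2 of 4 Ypel4-/- libraries. The replicates are mice, and p-values between genotypes measure the spread between them. For the populations and the interaction the main tests held no term for the mouse. They took both libraries of a mouse as independent, and the replicate block, given below, is the alternative with such a term.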

Additional observations from a re-analysis of the deposited data

Results flagged for a closer look

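Of 48 sets of 4 libraries, formed by 7 genes and 5 shares or ratios in 4 groups, 1 held a value set apart from the rest by more than Dixon's 95% critical value, which chance does for about 1 set in 20. The alpha to beta count ratio of Ypel4+/+ Poly-E replicate 2 was 0.280, below the 0.332 to 0.338 of the other libraries of its group. The same mouse had an Ortho-E ratio of 0.287.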

How the results depend on the processing

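All 7 members were called higher in Ortho-E of both genotypes under every alternative run except library totals (5 of 7, given above) and filterByExpr, which called 4 members in each genotype because it tested the 4 adult genes only. The chaperone was not analysed here, so its ratio to alpha globin was not run. With the replicate number as a block, 7 members were called in each comparison of populations and 0 in each comparison of genotypes and for the interaction, and the count of all genes called in Ortho-E between genotypes went from 3 to 13 and in Poly-E from 1 to 4. In Ortho-E between genotypes, where the numbers were not taken as pairs, 2 members under the block, Hbb-bs and Hbb-bt, in place of 1 had an unadjusted p under 0.05, as had 5.35% of all genes.

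Some differences between genotypes changed sign, those of embryonic genes of up to 0.27 included. By library totals Hba-a1 (0.014) and Hbb-bt (0.00057) in Poly-E and the Hbb-bh1 interaction (−0.020; with the replicate block −0.10) changed sign. Hba-a1 in Ortho-E, at 0.00, became −0.0053 in DESeq2, −0.025 in DESeq2 and −0.017 in edgeR on all 16 libraries, −0.0053 with median-ratio size factors, −0.000103 with members left out of the scaling and −0.0018 with filterByExpr. Leaving out 1 library at a time gave these ranges. In Poly-E they were −0.077 to 0.016 for Hba-a1, −0.13 to 5.93e-05 for Hba-a2, −0.015 to 0.49 for Hba-x, −0.13 to 0.051 for Hbb-bt, −0.18 to 0.59 for Hbb-y, −0.0086 to 0.35 for Hbq1a and −0.065 to 0.16 for Eif2s1. In Ortho-E they were −0.071 to 0.070 for Hba-a1, −0.028 to 0.095 for Hba-a2, −0.19 to 0.57 for Hbb-y and −0.095 to 0.72 for Hbb-bh1. For the interaction they were −0.023 to 0.13 for Hba-a1, −0.43 to 0.35 for Hbb-y, −0.36 to 0.44 for Hbb-bh1 and −0.14 to 0.14 for Hbq1a. The cause was not tested.

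Longer windows held more sequence particular to a gene: with 150 and 200 bases the share was 22.4% and 24.6% for Hba-a1, 34.3% and 39.2% for Hba-a2, 41.3% and 46.2% for Hbb-bs, and 49.3% and 54.2% for Hbb-bt. Shares and ratios came from the counts themselves, so scaling, filters and tests could not move them. Leaving out 1 of 4 libraries moves a group mean by less than 1 SD whatever the values. Depth limits the embryonic genes, with 17 counts or fewer in a library.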
